A study of Mus musculus with 12 samples.

Results

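The 48 genes described here encode the parts of the contractile actin cytoskeleton, with 4 tubulins and vimentin, and were chosen by symbol from a count table of 54100 mouse genes. They comprise 3 actins, 6 myosin chains, 4 tropomyosins, 6 regulators of actomyosin, 4 crosslinkers, 9 focal adhesion and LIM domain proteins, 4 ARP2/3 subunits, 7 capping or monomer-binding proteins and the 5 tubulin and vimentin genes. All 48 were in the table, and 46 had enough counts to be tested among 8161 genes. Cnn1 and Csrp1 did not, and their counts are given beside the classes they belong to.

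Actin filaments grow from monomers held by profilin and thymosins, branch through the ARP2/3 complex, and become contractile when myosin II, tropomyosin and alpha-actinin assemble on them as stress fibres. Stress fibres end in focal adhesions, where vinculin, talin, zyxin and related LIM proteins link them to integrins. Fibroblasts that take on a myofibroblast state are known for adding smooth muscle actin, Acta2, to these fibres. Tension and free actin monomer are known to feed back on transcription through the factor SRF with its cofactors, which bind the CArG box, and through YAP and TAZ, which act with TEAD factors.

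The cells were mesenchymal or fibro-adipogenic progenitors, the Pdgfra-expressing stromal cells that lie between muscle fibres, sorted as Pdgfra+ from plantaris muscle of mice. Each of 12 libraries was made from 1000 sorted cells, in 4 groups of 3. The cdKO groups carried Pdgfra-CreERT2 together with both the Yap1 flox/flox and the Taz flox/flox alleles, and came from overloaded or from sham plantaris. The control groups carried Pdgfra-CreERT2 alone, and likewise came from overloaded or sham plantaris. All 4 groups therefore share the Cre driver. Recombination is limited to cells in which the Pdgfra promoter drives the inducible Cre. The sources used here do not give the induction schedule, the age of the mice, the time after surgery or whether mice were pooled. Nothing states that the replicates came from separate animals, and a p-value then reflects only how these libraries vary, part of which may be technical.

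Library totals ran from 336437 to 1564581 counts, and 3 counts, taken as the detection floor, equal 1.95 to 9.72 CPM (counts scaled to library size) depending on the library. Taz (symbol Wwtr1) stood at 20.1, 18.2 and 22.5 CPM in overloaded cdKO libraries and at 174, 125 and 125 CPM in overloaded controls. It stood at 36.7, 40.6 and 27.1 CPM in sham cdKO libraries, against 124, 108 and 126 CPM in sham controls. Wwtr1 was lower in cdKO cells in overloaded muscle (log2 fold change -2.78 ± 0.28 SE, adjusted p = 1.83e-06), and it was also lower in sham muscle (-1.74 ± 0.27, adjusted p = 0.00733, edgeR quasi-likelihood test). Yap1 stood at 40.2, 22.1 and 33.7 CPM in overloaded cdKO libraries and 91.3, 47.4 and 39.7 CPM in overloaded controls, and at 71.5, 56.2 and 65.7 CPM in sham cdKO libraries and 108, 91.6 and 94.0 CPM in sham controls. Its difference between genotypes did not pass the test at either load (adjusted p = 0.586 and 0.999). The fibro-adipogenic marker Pdgfra was present in every library. It stood at 259 to 391 CPM in overloaded cdKO and 308 to 443 CPM in overloaded control libraries. In sham libraries it stood at 565 to 900 CPM in cdKO and 479 to 608 CPM in control cells. Of 10 fibro-adipogenic markers, 2 passed as higher and 3 as lower after overload in cdKO cells, against 6.37% and 6.68% of all genes. In control cells 2 were higher and 5 lower, against 10.6% and 11.0%. Dcn, for example, stood at 4026 to 6875 CPM in overloaded and 22066 to 31327 CPM in sham controls. Col3a1 stood at 30573 to 46393 CPM in overloaded and 11961 to 14269 CPM in sham controls. On the first principal component over all genes, the overloaded libraries nearest the sham ones were cdKO overload 2 at -7.39 and control overload 1 at -15.8, while the other 4 lay between -61.1 and -32.6. The summed Y-linked signal was 71.6 and 87.5 CPM in control overload 2 and 3, against 123.5 to 315 CPM in the other 10 libraries.

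The promoters of 45 of the 48 genes were found in a RefSeq table (GRCm38.p6). It holds 250 bases before to 50 bases after each gene's start. Tubb6, Tagln and Actb were not in it and so were not searched. An exact CArG box, searched on both strands, was present in 7 of these 45 genes (15.6%), namely Actg1, Cnn2, Lima1, Myl6, Myl9, Trip6 and Vcl, against 1.81% of 27025 genes with a promoter in the table. Allowing 1 mismatch in the A/T core brought the counts to 11 of 45 (24.4%), against 11.3% of all genes, and added Acta2, Myl12a, Tpm3 and Vasp. The TEAD motif GGAATG, searched on both strands, lay in 13 of 45 (28.9%), against 16.6% of all genes. Of the 7 genes with an exact box, 1 (Cnn2) passed the test for a change with overload in control cells and the other 6 did not. These matches are a description of the letters and not evidence of binding. The windows below are those of Acta2, the gene with the largest overload change in control cells, and of Cnn2, Actg1 and Vcl, which hold an exact box. Capitals mark each CArG box, exact in the last 3 and with 1 core mismatch in both boxes of Acta2. They span chr19:34255324-34255623 (minus strand) for Acta2, chr10:79988350-79988649 (plus) for Cnn2, chr11:120348446-120348745 (minus) for Actg1 and chr14:20929148-20929447 (plus) for Vcl.
Acta2: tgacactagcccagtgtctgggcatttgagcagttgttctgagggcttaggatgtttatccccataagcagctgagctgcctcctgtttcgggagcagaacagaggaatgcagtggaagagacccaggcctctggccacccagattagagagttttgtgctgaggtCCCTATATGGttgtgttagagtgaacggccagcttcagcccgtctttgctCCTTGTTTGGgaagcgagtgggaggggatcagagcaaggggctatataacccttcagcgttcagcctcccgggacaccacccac
Cnn2: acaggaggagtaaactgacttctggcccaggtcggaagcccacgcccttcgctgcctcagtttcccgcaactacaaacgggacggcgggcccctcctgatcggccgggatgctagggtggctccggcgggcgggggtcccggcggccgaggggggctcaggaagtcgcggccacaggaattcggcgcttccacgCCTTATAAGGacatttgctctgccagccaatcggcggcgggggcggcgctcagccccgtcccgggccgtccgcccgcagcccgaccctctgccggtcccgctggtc
Actg1: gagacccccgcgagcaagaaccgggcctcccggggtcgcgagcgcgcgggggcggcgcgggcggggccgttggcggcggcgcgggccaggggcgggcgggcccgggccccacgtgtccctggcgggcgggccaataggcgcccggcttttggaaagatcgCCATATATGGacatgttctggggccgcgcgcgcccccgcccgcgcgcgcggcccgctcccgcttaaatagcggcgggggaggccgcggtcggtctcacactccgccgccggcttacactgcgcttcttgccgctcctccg
Vcl: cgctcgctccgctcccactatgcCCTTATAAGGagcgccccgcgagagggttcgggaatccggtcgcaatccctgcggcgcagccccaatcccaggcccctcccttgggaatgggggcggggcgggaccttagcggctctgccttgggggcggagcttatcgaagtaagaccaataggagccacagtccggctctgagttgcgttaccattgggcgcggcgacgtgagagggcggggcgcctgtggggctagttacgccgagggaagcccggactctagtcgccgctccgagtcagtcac

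The first question of the design is what overload did to these genes in progenitors of each genotype. Acta2, the myosin heavy chain Myh9, the tropomyosin Tpm4, the regulators Cald1, Tagln and Tagln2, and the crosslinker Actn1 were higher after overload in cdKO cells and in control cells, while the other actins did not pass the edgeR test and, of the other myosin chains, Myh10 alone did, as lower in cdKO cells. In cdKO cells 10 of 46 genes were higher and 2 lower, against 6.37% higher and 6.68% lower among all 8161 genes tested. In control cells 17 of 46 were higher and 1 lower, against 10.6% higher and 11.0% lower among all genes. The median log2 fold change of the 46 genes was 0.49 in cdKO cells and 0.63 in control cells, beside -0.02 and -0.05 over all genes. The genes were chosen with earlier results of these data known, so these shares and medians are a description and not a test of the list. The threshold was a Benjamini-Hochberg adjusted p of 0.05, with adjustment across all 8161 genes, in edgeR's quasi-likelihood test on 3 against 3 libraries.

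The summed level of the 48 genes was 21100, 19315 and 22154 CPM in overloaded cdKO libraries and 15996, 13885 and 12769 CPM in sham cdKO libraries. It was 17634, 30749 and 26304 CPM in overloaded control libraries and 14985, 14975 and 12995 CPM in sham controls. In both genotypes each overloaded library stood above each sham library, with control overload 1 the lowest of the 6 overloaded ones. The sum made up 1.18% to 3.03% of a library's counts. Actb alone gave 23.4% to 35.6% of it and Vim 13.2% to 20.8%, so it follows abundant genes and was not tested. In bulk RNA such as this, more cells expressing a gene and more RNA per cell cannot be told apart.

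**Figure D1:**
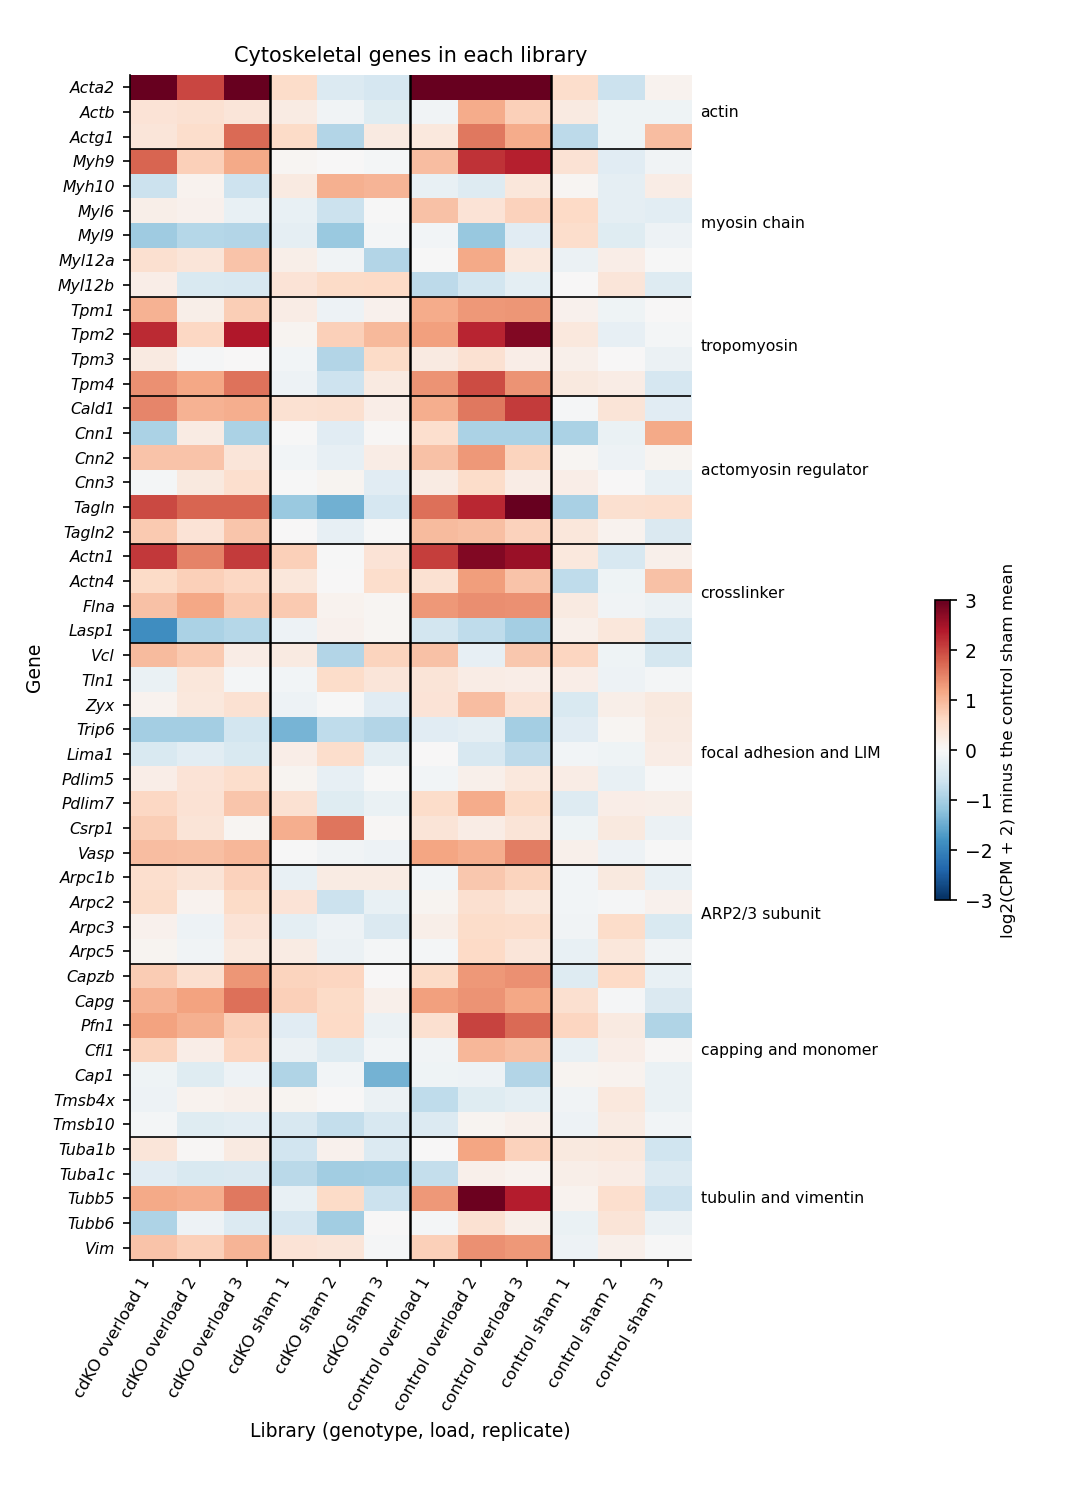
Each row is a gene and each column a library, and colour is log2(CPM + 2) minus the mean of the control sham libraries, with the scale ending at -3 and 3. Acta2, Tagln, Actn1, Tpm4 and Tubb5 are red in all 6 overloaded libraries, Tpm2 and Myh9 are paler in cdKO overload 2, and the 4 ARP2/3 genes stay pale throughout.

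Among the actins, Acta2, the smooth muscle isoform on the minus strand at chr19:34241090-34255590 (GRCm38), had the largest fitted increase of the 46 genes in control cells. It stood at 159, 53.3 and 212 CPM in overloaded cdKO libraries, against 18.3, 8.33 and 7.73 CPM in sham cdKO libraries. In control cells it stood at 186, 336 and 304 CPM after overload, against 18.02, 6.84 and 13.0 CPM after sham surgery. The overloaded and sham libraries did not overlap in either genotype, and cdKO overload 2 was the lowest overloaded library by a wide margin. The log2 fold change was 3.66 ± 0.51 (SE) in cdKO cells (adjusted p = 0.000285) and 4.54 ± 0.53 in control cells (adjusted p = 1.80e-05). The sham values rest on 4 to 10 counts per library.

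The cytoplasmic beta-actin Actb, at chr5:142903115-142906754, did not pass the edgeR test in either genotype. It stood at 5891, 6121 and 5744 CPM in overloaded cdKO libraries and 5274, 4138 and 3470 CPM in sham cdKO libraries. Control cells had 4123, 9581 and 7297 CPM after overload and 5331, 4041 and 4034 CPM after sham surgery. Control overload 1 lay inside the range of the sham libraries, and without it the log2 fold change of Actb in control cells was 0.97 with an adjusted p of 0.0103, against 0.65 and 0.110 with all libraries. With all libraries Actb did pass in control cells by DESeq2 (adjusted p = 0.0361) and by limma (adjusted p = 0.0384). It was called in 3 of 24 other settings and left-out libraries, over which its log2 fold change ran from 0.14 to 0.97. Gamma-actin, Actg1, had only 2 to 49 counts per library and did not pass either test with all libraries. Without control overload 1 its log2 fold change in control cells was 1.54 (adjusted p = 0.0424), against 1.23 (adjusted p = 0.130). Of the 50-base windows in the last 400 bases of its transcripts, 43.4% occur in transcripts of other annotated genes, so its counts are uncertain.

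Of the 6 myosin chains, Myh9, the heavy chain of non-muscle myosin IIA, rose in both genotypes. It stood at 575, 281 and 378 CPM in overloaded cdKO libraries against 176, 173 and 162 CPM in sham cdKO libraries (log2 fold change 1.27 ± 0.32, adjusted p = 0.0115). In control cells it stood at 327, 769 and 864 CPM after overload against 232, 134 and 159 CPM after sham surgery (1.91 ± 0.33, adjusted p = 0.000239). No overloaded library of Myh9 fell within the sham range. The cdKO call was lost without cdKO overload 1 (adjusted p = 0.105) or cdKO sham 2 (adjusted p = 0.0543).

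Myh10, the heavy chain of non-muscle myosin IIB, moved the other way in cdKO cells. It stood at 18.5, 32.5 and 19.1 CPM in overloaded cdKO libraries against 36.7, 65.6 and 63.8 CPM in sham cdKO libraries. The cdKO difference was -1.25 ± 0.34 (log2, adjusted p = 0.0158), and its adjusted p was 0.0875, 0.0980, 0.0763 and 0.0504 without cdKO overload 1, cdKO overload 3, cdKO sham 2 or cdKO sham 3. The call was also lost by DESeq2 (adjusted p = 0.0510) and with no filter on low counts (0.0822). In control cells Myh10 stood at 25.8, 22.7 and 38.5 CPM after overload and 31.5, 24.6 and 35.6 CPM after sham surgery, which overlap, with a difference of -0.05 (95% interval -0.80 to 0.70, adjusted p = 0.940). The difference between the genotypes in this response was -1.20 (95% interval -2.22 to -0.18) with an unadjusted p of 0.0230 and an adjusted p of 0.925, so it did not pass.

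The balance between both heavy chains differed with load in each genotype. Myh10 made up 3.13%, 10.4% and 4.80% of the counts of the pair in overloaded cdKO libraries, against 17.2%, 27.5% and 28.2% in sham cdKO libraries. In control cells it made up 7.32%, 2.87% and 4.27% after overload, against 11.97%, 15.5% and 18.3% after sham surgery. All overloaded shares lay below all sham shares in each genotype. These are shares of counts and not of molecules, and the 95% Wilson intervals, which cover counting error only, ran from 1.80% to 5.38% for the lowest cdKO share and from 20.8% to 36.95% for the highest.

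**Figure D2:**
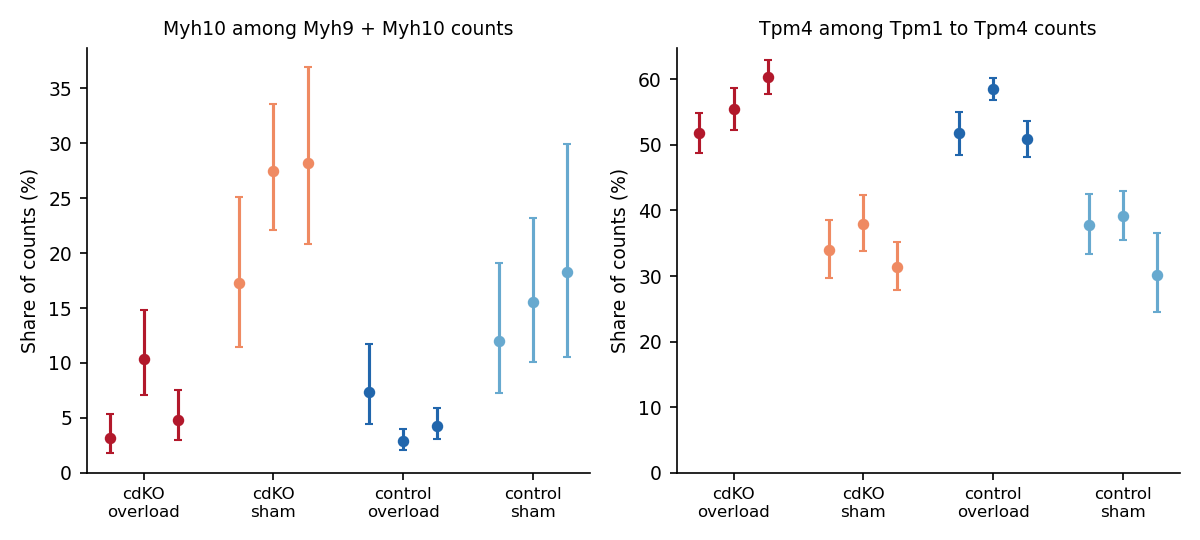
Points are libraries and bars are 95% Wilson intervals for counting error. The left panel shows the percent of Myh9 plus Myh10 counts that came from Myh10, and the right panel the percent of tropomyosin counts that came from Tpm4. In both genotypes the overloaded libraries lie below the sham libraries for Myh10 and above them for Tpm4.

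The 4 myosin light chains, Myl6, Myl9, Myl12a and Myl12b, did not pass the edgeR test in either genotype. Their log2 fold changes with overload ran from -0.86 (Myl12b) to 0.79 (Myl12a) in cdKO cells and from -0.70 (Myl12b) to 0.61 (Myl6) in control cells. Myl9, a light chain typical of smooth muscle, rested on 5 to 12 counts per library. Myl12a passed in cdKO cells without control overload 1 or control overload 2 (adjusted p = 0.0485 and 0.0405), by limma (0.0309) or with the summed Y-linked share of counts as a covariate (0.0362), and in control cells without control overload 1 (0.83, adjusted p = 0.0368). Between 28.1% and 36.8% of the end windows of Myl6, Myl12a and Myl12b occur in other genes' transcripts, which makes their counts uncertain.

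All 4 tropomyosins, the coiled coils that run along actin filaments, had positive fold changes, and they differed in size. Tpm4 stood at 797, 689 and 955 CPM in overloaded cdKO libraries against 273, 199 and 369 CPM in sham cdKO libraries. Control cells had 784, 1196 and 783 CPM after overload against 374, 357 and 214 CPM after sham surgery. Its log2 fold change was 1.54 in each genotype (1.54 ± 0.28, adjusted p = 0.000797 in cdKO and 0.00038 in control cells). Tpm1 passed in control cells (1.29 ± 0.27, adjusted p = 0.00121), with 114, 130 and 132 CPM after overload against 56.3, 46.5 and 51.8 CPM after sham surgery. In cdKO cells it had 108, 58.5 and 87.6 CPM after overload and 60.5, 45.8 and 56.1 CPM after sham surgery, which overlap, and did not pass (0.66, adjusted p = 0.104). Tpm2 likewise passed in control cells (2.55 ± 0.56, adjusted p = 0.00193), with 19.0, 41.5 and 58.4 CPM against 9.01, 5.47 and 6.48 CPM. In cdKO cells Tpm2 had 40.2, 11.7 and 44.9 CPM after overload and 7.33, 12.5 and 15.5 CPM after sham surgery, where cdKO overload 2 lay within the sham range (1.44 ± 0.49, adjusted p = 0.0522). Without cdKO overload 2 Tpm2 passed at 1.87 (adjusted p = 0.00504) and Tpm1 at 0.90 (adjusted p = 0.0254). Tpm2 also passed in cdKO cells without control overload 1 (adjusted p = 0.0262) or control overload 2 (adjusted p = 0.0459). Tpm3 did not pass in either genotype (0.11 in cdKO, 0.30 in control cells).

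Tpm4 therefore took a larger share of the tropomyosin counts in overloaded libraries, at 51.8%, 55.5% and 60.4% in cdKO cells against 33.9%, 38.0% and 31.4% after sham surgery. In control cells the Tpm4 share was 51.8%, 58.5% and 50.9% after overload against 37.8%, 39.2% and 30.1% after sham surgery. The shares of overloaded and sham libraries did not overlap. Tpm3, of whose end windows 32.3% are shared with Tpm3-rs7, is part of the denominator.

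Of the 5 regulators tested, which tune how myosin meets actin, 3 were higher in cdKO cells and 4 in control cells. Tagln (transgelin, or SM22-alpha, chr9:45929619-45936058, minus strand) stood at 30.9, 26.0 and 25.8 CPM in overloaded cdKO libraries against 1.83, 1.04 and 3.87 CPM in sham cdKO libraries. Control cells had 24.1, 37.6 and 78.2 CPM after overload against 2.25, 9.57 and 9.72 CPM after sham surgery. Every overloaded library exceeded every sham library. The log2 fold change was 3.67 ± 0.64 in cdKO cells (adjusted p = 0.000488) and 2.66 ± 0.51 in control cells (adjusted p = 0.000577). The sham cdKO libraries of Tagln hold only 4 counts in all, against 63 in overloaded ones, a ratio of 13.8 with a 95% interval for counting error of 5.14 to 52.3, so the fitted value depends on the prior count. In control cells 139 counts stood against 11, a ratio of 6.30 (3.41 to 12.9). Tagln overlaps Pcsk7 on the opposite strand, and the strand setting of the counting is not given. The assignment of reads from the stretch that they share is therefore uncertain.

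Cald1, which encodes caldesmon, stood at 817, 601 and 626 CPM in overloaded cdKO libraries against 403, 409 and 334 CPM in sham cdKO libraries (0.83 ± 0.27, adjusted p = 0.0411). In control cells Cald1 had 629, 887 and 1253 CPM after overload against 286, 380 and 230 CPM after sham surgery (1.62 ± 0.28, adjusted p = 0.000164). The cdKO call of Cald1 was lost without any 1 of 5 cdKO libraries, all but cdKO overload 2, with adjusted p from 0.0856 to 0.190, and without control sham 1 (0.0563) or control sham 3 (0.0570). Tagln2, the broadly expressed transgelin, rose in both genotypes, by 0.77 ± 0.25 in cdKO cells (adjusted p = 0.0399) and 0.82 ± 0.25 in control cells (adjusted p = 0.0193). Its cdKO call was lost without the same 5 cdKO libraries (adjusted p from 0.0871 to 0.159), control overload 3 (0.0523) or control sham 3 (0.0573), and its control call without control overload 2 (0.0582) or control sham 3 (0.120). The calponin Cnn2 passed in control cells, with 41.4, 55.8 and 35.0 CPM after overload against 22.5, 19.1 and 22.7 CPM (1.08 ± 0.34, adjusted p = 0.0245). That call was lost without control overload 2 (adjusted p = 0.160), control sham 1 (0.0603) or control sham 2 (0.0962). In cdKO cells Cnn2 had 40.2, 40.3 and 28.1 CPM against 20.2, 17.7 and 25.1 CPM and did not pass (0.80 ± 0.34, adjusted p = 0.119), though its groups did not overlap. Cnn3 did not pass in either genotype. Calponin 1, Cnn1, a marker of differentiated smooth muscle, had 0 to 2 counts in every library, which is under the floor.

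The crosslinkers split. Actn1, the alpha-actinin of stress fibres (chr12:80167547-80260371), stood at 207, 134 and 207 CPM in overloaded cdKO libraries against 77.0, 45.8 and 61.9 CPM in sham cdKO libraries (1.59 ± 0.28, adjusted p = 0.000621). In control cells Actn1 had 202, 328 and 287 CPM after overload against 58.6, 32.8 and 51.8 CPM after sham surgery (2.56 ± 0.30, adjusted p = 1.67e-06). Neither comparison had overlapping libraries. Filamin A, Flna, an orthogonal crosslinker on the X chromosome, passed in control cells, with 129, 140 and 137 CPM against 63.1, 47.8 and 45.4 CPM (1.37 ± 0.27, adjusted p = 0.000641). In cdKO cells Flna had 95.8, 118 and 89.8 CPM after overload and 89.8, 55.2 and 54.1 CPM after sham surgery. Its lowest overloaded library was level with its highest sham library, and it did not pass (0.62 ± 0.26, adjusted p = 0.110).

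Lasp1, a LIM and SH3 protein that binds actin, was the only one of the 46 genes past the edgeR threshold as lower after overload in both genotypes. It stood at 57.2, 111 and 117 CPM in overloaded cdKO libraries against 192, 236 and 224 CPM in sham cdKO libraries (-1.19 ± 0.27, adjusted p = 0.00491). In control cells Lasp1 had 146, 127 and 104 CPM after overload against 239, 271 and 152 CPM after sham surgery (-0.84 ± 0.27, adjusted p = 0.0260). The groups did not overlap in either genotype. The cdKO call of Lasp1 was lost without cdKO overload 1 (adjusted p = 0.0576), and the control call without control overload 2 (0.0873), control overload 3 (0.140), control sham 1 (0.0984) or control sham 2 (0.176), and by DESeq2 (0.0677). The alpha-actinin Actn4 did not pass in either genotype (0.36 in cdKO, 0.87 in control cells, adjusted p = 0.520 and 0.0663). In control cells it passed without control overload 1 (adjusted p = 0.0186) or without control sham 3 (adjusted p = 0.0116), and by limma with all libraries (0.0324).

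**Figure D3:**
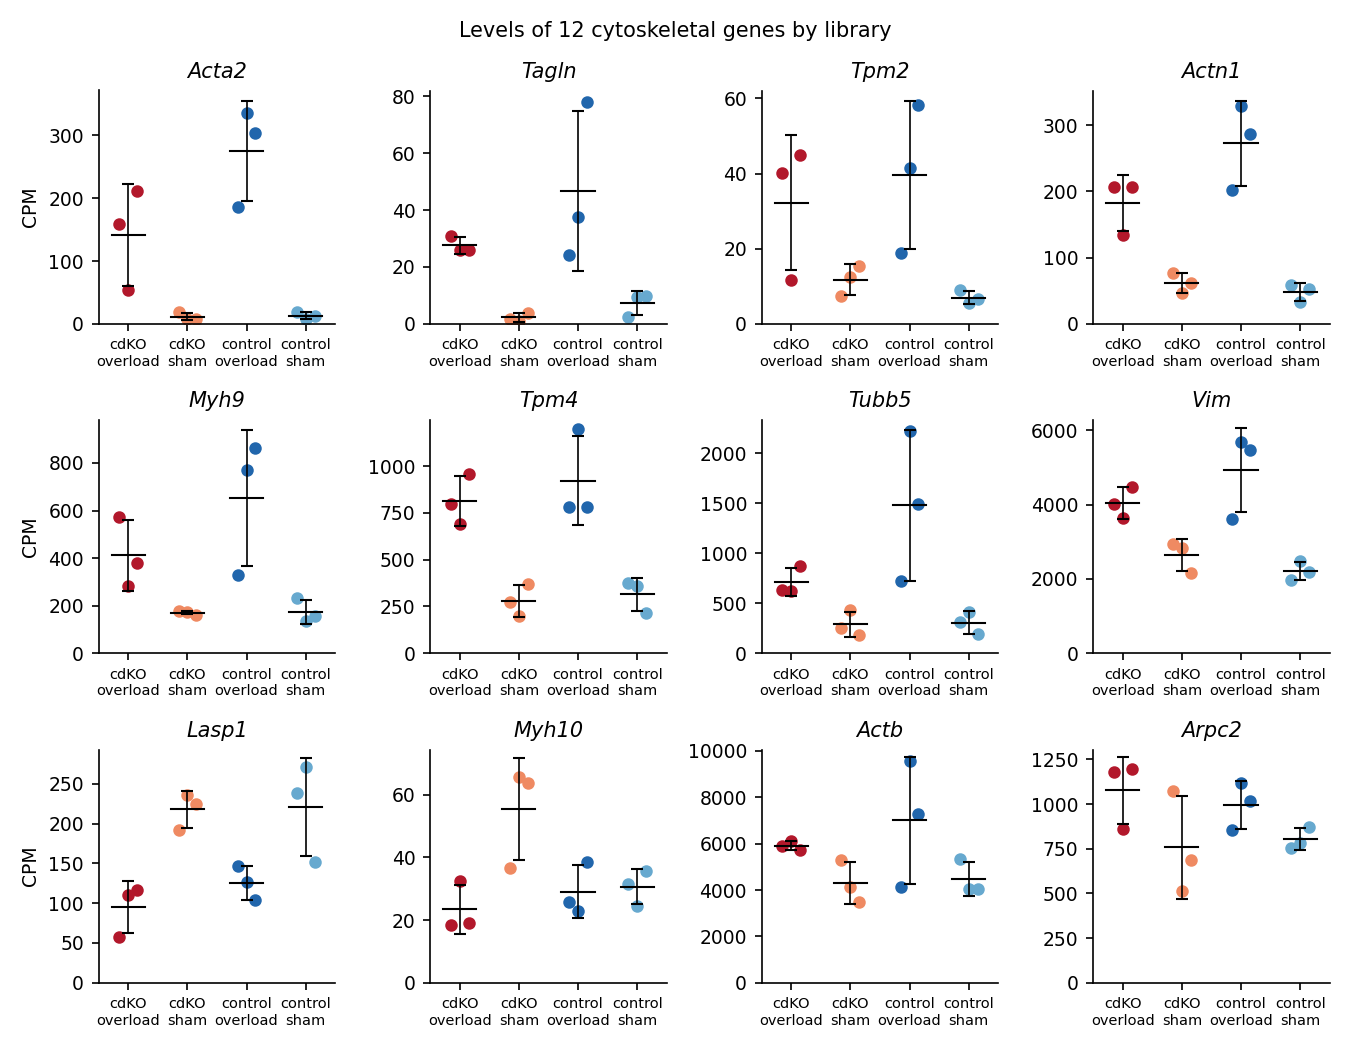
CPM of 12 of the genes in each library, with points for libraries, a bar for the mean and whiskers for the SD of 3 libraries, and each panel on its own axis from 0. Acta2, Tagln, Actn1, Myh9, Tpm4 and Tubb5 lie above the sham libraries in every overloaded library of both genotypes, Lasp1 lies below them, and Arpc2 overlaps.

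Of 8 focal adhesion and LIM genes tested, 1 was higher in each genotype, a count near the share over all genes given above, and it was Vasp, which elongates filaments at adhesions. Vasp had 51.0, 50.7 and 53.9 CPM in overloaded cdKO libraries against 25.7, 23.9 and 23.2 CPM in sham cdKO libraries (1.09 ± 0.29, adjusted p = 0.0139). In control cells Vasp had 62.0, 57.8 and 79.4 CPM after overload against 29.3, 23.2 and 25.9 CPM after sham surgery (1.35 ± 0.30, adjusted p = 0.00183). The groups did not overlap, and the cdKO call was lost without cdKO overload 3 (adjusted p = 0.0622) or cdKO sham 2 (0.0665). The other 7, vinculin (Vcl), talin 1 (Tln1), zyxin (Zyx), Trip6, Lima1, Pdlim5 and Pdlim7, had log2 fold changes from -0.61 (Lima1) to 0.67 (Pdlim7) in cdKO cells and from -0.53 (Trip6) to 0.77 (Pdlim7) in control cells. Pdlim7 was nearest the threshold in control cells (adjusted p = 0.0511) and passed without control overload 1 (0.0224), cdKO overload 2 (0.0379), cdKO sham 1 (0.0446) or cdKO sham 2 (0.0393). Trip6 was called lower in control cells by limma alone (-0.74, adjusted p = 0.0333). Vcl rested on 3 to 24 counts per library, and it overlaps Ap3m1 on the other strand, as Tln1 overlaps Creb3. Csrp1, another LIM protein, held 2 to 26 counts per library and went untested.

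None of the 4 ARP2/3 subunits, which nucleate branched filaments, passed the edgeR test in either genotype, and none reached an unadjusted p under 0.05. DESeq2 and limma called 0 of them as well, with 1 and 2 at an unadjusted p under 0.05 in each genotype. The log2 fold changes ran from 0.11 (Arpc5) to 0.51 (Arpc2) in cdKO cells and from 0.29 (Arpc5) to 0.50 (Arpc1b) in control cells, with standard errors of 0.24 to 0.27. Arpc2, for example, had 1177, 861 and 1195 CPM in overloaded cdKO libraries and 1072, 512 and 688 CPM in sham cdKO libraries, which overlap. In control cells Arpc2 had 855, 1118 and 1014 CPM after overload and 752, 785 and 871 CPM after sham surgery. Arpc1b passed in control cells without control overload 1 (0.77, adjusted p = 0.0245), against 0.50 and 0.168 with all libraries. Arpc1b overlaps Pdap1 on the other strand.

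Of the 7 capping and monomer-binding genes, Capg, which caps filament ends, passed in both genotypes. Its log2 fold change was 0.84 ± 0.25 in cdKO cells (adjusted p = 0.0290) and 1.21 ± 0.27 in control cells (adjusted p = 0.00199). The cdKO call was lost without cdKO overload 3 (adjusted p = 0.205), cdKO sham 2 (0.0794) or cdKO sham 3 (0.142). Capzb, a subunit of capping protein, and profilin 1, Pfn1, passed in control cells (1.04 ± 0.30, adjusted p = 0.0143, and 1.41 ± 0.38, adjusted p = 0.0131). In both, control overload 1 overlapped the sham range. The call of Capzb was lost without control overload 3 (adjusted p = 0.0562), control sham 1 (0.0874) or control sham 3 (0.0592), and that of Pfn1 without control overload 2 (0.0607). With the Y-linked share as a covariate both control calls were lost (adjusted p = 0.198 for Capzb and 0.416 for Pfn1). Pfn1, for example, had 79.3, 237 and 189 CPM after overload against 90.1, 68.4 and 29.2 CPM after sham surgery in control cells. In cdKO cells Pfn1 had 134, 121 and 94.3 CPM after overload and 44.0, 86.4 and 50.3 CPM after sham surgery. Those libraries of Pfn1 did not overlap, and it did not pass (0.90 ± 0.38, adjusted p = 0.127), although it did without control overload 1 (adjusted p = 0.0375) or with the Y-linked covariate (0.00742). Cofilin 1 (Cfl1), cyclase-associated protein (Cap1) and the thymosins Tmsb4x and Tmsb10 did not pass the edgeR test with all libraries. Cfl1 did pass with all libraries by DESeq2 (adjusted p = 0.0384 in cdKO and 0.0356 in control cells) and by limma (0.0349 and 0.0180). By edgeR Cfl1 passed in control cells without control overload 1 (adjusted p = 0.00531), and in cdKO cells without it (0.0374) or without cdKO overload 2 (0.0350).

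Among tubulins, Tubb5, a beta-tubulin of microtubules, stood at 633, 621 and 871 CPM in overloaded cdKO libraries against 249, 430 and 186 CPM in sham cdKO libraries (1.29 ± 0.38, adjusted p = 0.0322). In control cells Tubb5 had 718, 2221 and 1494 CPM after overload against 311, 414 and 188 CPM after sham surgery (2.26 ± 0.39, adjusted p = 0.0005). The groups did not overlap, and control overload 2 stood highest. The cdKO call of Tubb5 was lost without cdKO overload 1 (adjusted p = 0.0808), cdKO overload 3 (0.161), cdKO sham 1 (0.125), cdKO sham 3 (0.122), control overload 3 or control sham 1 (0.0534 each). The summed CPM of 12 dividing-cell markers moved with it, at 371, 174 and 375 CPM in overloaded cdKO libraries and 114 to 149 CPM in sham cdKO libraries, and at 396, 1024 and 816 CPM in overloaded controls and 131 to 152 CPM in sham controls. Of the 10 markers tested, 2 passed as higher in cdKO cells and 8 in control cells. Their part in the Tubb5 result was not tested. Tuba1b, Tuba1c and Tubb6 did not pass the edgeR test with all libraries. In control cells Tuba1b passed without control overload 1 (adjusted p = 0.0117), and by limma with all libraries (0.0436). Of the end windows of Tuba1b and Tuba1c, 53.3% and 59.3% occur in other genes' transcripts.

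Vimentin, Vim, the main intermediate filament protein of mesenchymal cells, stood at 4019, 3634 and 4471 CPM in overloaded cdKO libraries against 2933, 2831 and 2165 CPM in sham cdKO libraries. These did not overlap, and the difference did not pass by edgeR (0.61 ± 0.26, adjusted p = 0.119), but did by DESeq2 (0.0247) and limma (0.0363). In control cells Vim had 3618, 5692 and 5477 CPM after overload against 1980, 2472 and 2197 CPM after sham surgery (1.15 ± 0.26, adjusted p = 0.00236). That control call was lost with the Y-linked share as a covariate (adjusted p = 0.0655) and without both control overload 2 and control sham 3 (0.0641).

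The calls rested on single libraries and settings to different degrees. In cdKO cells Acta2, Actn1, Tagln and Tpm4 passed under all 23 other settings and left-out libraries that involve no random draw, and the other 8 calls were each lost in at least 1. The cdKO count of 12 was 6 without cdKO overload 1, cdKO overload 3 or cdKO sham 2, and 7 without cdKO sham 3. In control cells Acta2, Actn1, Cald1, Flna, Myh9, Tagln, Tpm1, Tpm2, Tpm4, Tubb5 and Vasp passed under all 23. The control count of 18 was 26 without control overload 1 and 14 without control overload 2. Without both control overload 2, the deepest library, and control sham 3, the shallowest, 11 of the 18 calls were left. With the Y-linked share of counts as a covariate the control calls of Capzb, Cnn2, Lasp1, Pfn1 and Vim were lost, and in cdKO cells that of Tagln2 was lost while Pfn1 and Myl12a passed. By DESeq2 the calls of Cnn2 and Lasp1 in control cells and of Myh10 in cdKO cells were lost. With no filter on low counts Cald1, Capg, Myh10, Tagln2 and Vasp were lost in cdKO cells and Cnn2 and Lasp1 in control cells. With counts thinned at random to the smallest library, in 1 draw, Tagln did not pass in either genotype (adjusted p = 0.166 in cdKO and 0.135 in control cells). Some genes not called by edgeR with all libraries were called in some of 24 other settings and left-out libraries. In control cells Tuba1b was called in 2, with log2 fold changes over all 24 from 0.13 to 0.95. Myl12a was called in 1 (0.16 to 0.83), Actn4 in 3 (0.43 to 1.40) and Pdlim7 in 7 (0.58 to 0.95). In cdKO cells Tpm2, Cfl1 and Myl12a were each called in 4, Pfn1 in 3, Vim in 2 and Tpm1 in 1.

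All 10 genes that were higher in cdKO cells were among the 17 that were higher in control cells, which is 58.8% of the control list and 100% of the cdKO list. The 7 that passed by edgeR in control cells alone were Capzb, Cnn2, Flna, Pfn1, Tpm1, Tpm2 and Vim. Passing in 1 genotype and not in the other does not show a difference, and the test of the difference is given further on. The overload comparisons share no library between genotypes, and the log2 fold changes of the 46 genes had a Pearson correlation of 0.87 and a Spearman correlation of 0.88 between them. Genes are not independent replicates, so this is a description. The sign was the same in 40 of 46 genes, and the fold change was higher in control cells in 31 of 46. The overlap of calls, the correlations and these counts were not computed over all genes. Whether they are particular to this list was therefore not tested. All overloaded libraries stood above all sham libraries for 22 of 46 genes in cdKO cells and 19 of 46 in control cells, beside 15.4% and 18.0% of all genes.

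**Figure D4:**
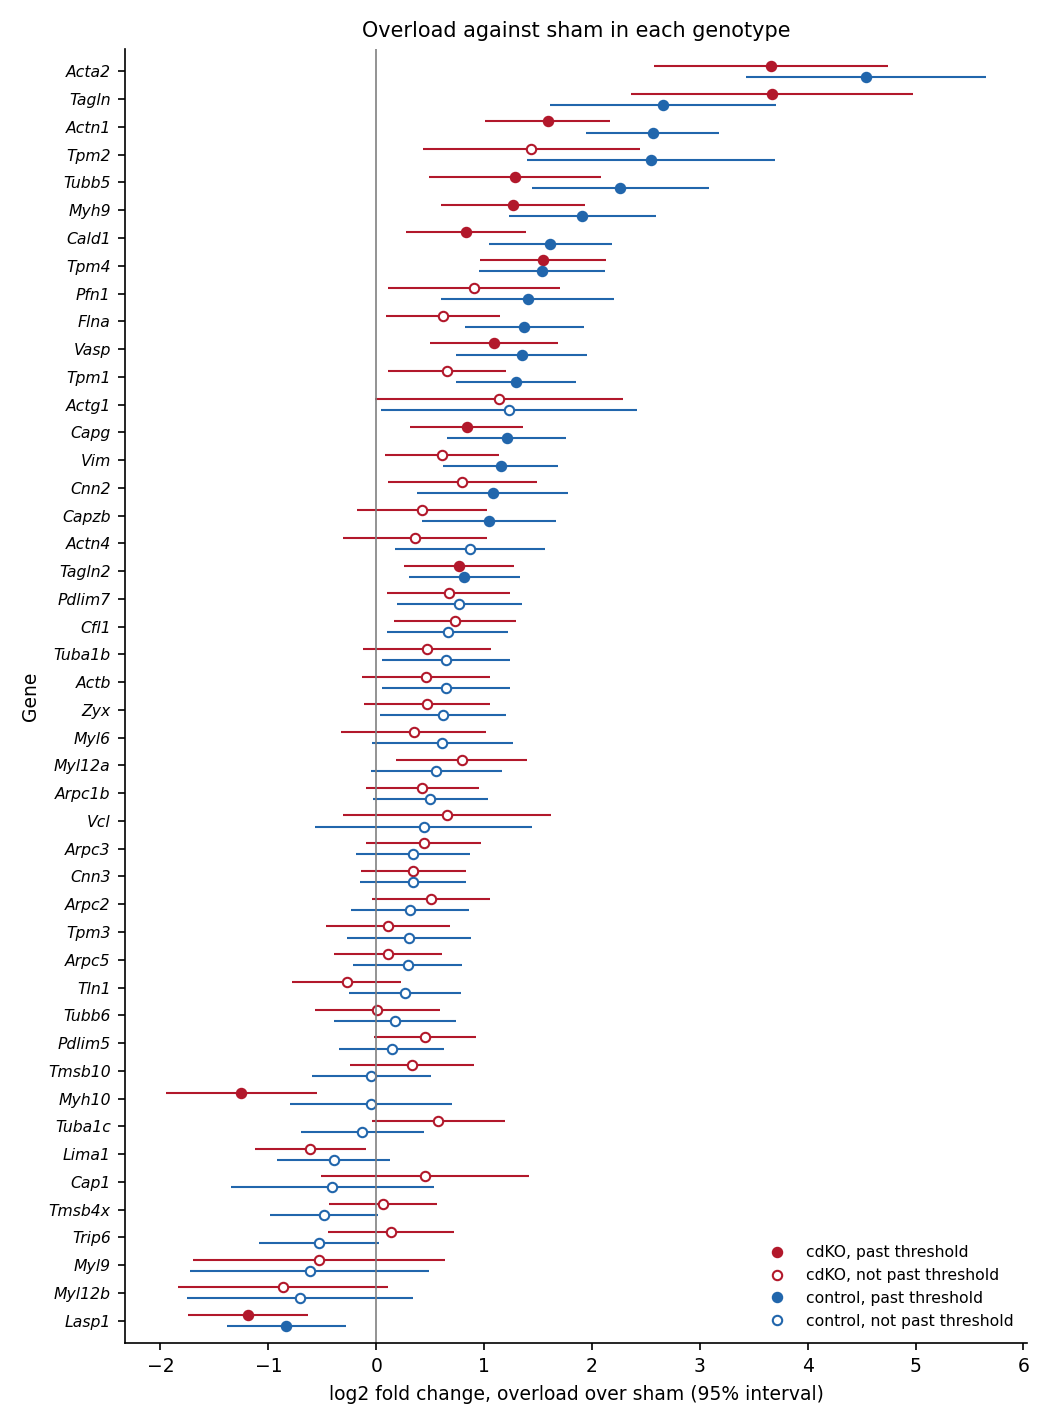
Log2 fold change of overload over sham for 46 genes, in cdKO cells (red, upper of each pair) and in control cells (blue), with 95% intervals and filled points past the threshold. Acta2 and Tagln are at the top with values between 2.66 and 4.54, and the lowest value is that of Myh10 in cdKO cells (-1.25) and of Lasp1 in control cells (-0.84).

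The second question is whether loss of YAP and TAZ altered these genes at a given load. None of the 46 genes passed in overloaded muscle, where 0.0368% of all genes did, and none passed in sham muscle, where 0.0123% did. By edgeR, 7 genes had an unadjusted p under 0.05 in overloaded and 5 in sham muscle, beside 569 and 334 of all 8161 genes. DESeq2 and limma with quality weights called 0 of the members in each. Over both loads together none passed, against 0.0123% of all genes, with 7 at an unadjusted p under 0.05, beside 434 of 8161. For the interaction of genotype and load none passed, against 0% of all genes, with 3 at an unadjusted p under 0.05 (Actn1, Cald1 and Myh10), beside 427 of 8161, and DESeq2 and limma again called 0 in both.

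All cdKO libraries stood below all control libraries for 5 of the 46 genes and above them for 1 in overloaded muscle, beside 5.31% and 5.38% of all genes. In sham muscle they stood below for 3 and above for 2, beside 4.45% and 5.44%.

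In overloaded muscle the log2 fold change of cdKO over control was negative for 38 of the 46 genes, with a median of -0.29, beside 0.03 over all genes. The median was -0.17 without control overload 2 and -0.43 without control overload 1. The 7 genes with an unadjusted p under 0.05 were Tubb5, Acta2, Tubb6, Tpm1, Actn1, Myh9 and Myl6, and all were lower in cdKO libraries. Acta2 had the values given above, 53.3 to 212 CPM in cdKO and 186 to 336 CPM in control libraries, with a difference of -0.97 (95% interval -1.75 to -0.18, adjusted p = 0.631). For Actn1 the difference was -0.59 (-1.11 to -0.06, adjusted p = 0.658) and for Myh9 -0.68 (-1.32 to -0.03, adjusted p = 0.702). In each of these 3 genes the libraries of the genotypes overlapped.

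In Tpm1, Tubb6 and Myl6 they did not overlap. Tpm1 had 108, 58.5 and 87.6 CPM in overloaded cdKO and 114, 130 and 132 CPM in overloaded control libraries (-0.57, 95% interval -1.08 to -0.07, adjusted p = 0.655). Tubb6 had 86.5, 150 and 125 CPM against 159, 230 and 188 CPM (-0.68, -1.24 to -0.12, adjusted p = 0.631). Myl6 had 41.7, 40.3 and 31.4 CPM against 68.9, 49.3 and 60.7 CPM (-0.64, -1.26 to -0.03, adjusted p = 0.702). Vasp and Flna also had all cdKO libraries below all control libraries, at unadjusted p of 0.183 and 0.0935. Tmsb4x, which sequesters actin monomers, was the only gene with all overloaded cdKO libraries above the overloaded controls, at 873, 1052 and 1081 CPM against 572, 760 and 794 CPM (0.50, 95% interval -0.000152 to 0.997, adjusted p = 0.708).

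Tubb5 had the largest difference, at 633, 621 and 871 CPM in overloaded cdKO against 718, 2221 and 1494 CPM in overloaded control libraries (-1.06 ± 0.37, 95% interval -1.85 to -0.28, adjusted p = 0.574). Without control overload 1 it was -1.45 and passed (adjusted p = 0.0401). No other gene of the list passed a comparison between genotypes in any setting tried. Over the 24 other settings and left-out libraries the Tubb5 difference ran from -1.45 to -0.12, and it passed in 1. Of the 10 dividing-cell markers tested, 9 had an unadjusted p under 0.05 in this comparison and none passed the threshold, and the summed marker levels given above differed between the overloaded groups. Their part in the Tubb5 difference was not tested.

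In sham muscle the median log2 fold change of cdKO over control was -0.05, beside 0.01 over all genes. The 5 genes at an unadjusted p under 0.05 were Trip6, Tuba1c, Myh10, Tagln and Tmsb10, each with an adjusted p of 0.999. Trip6, a zyxin relative, had 42.2, 66.6 and 61.9 CPM in sham cdKO and 90.1, 120 and 139 CPM in sham control libraries, which do not overlap (-1.01, 95% interval -1.59 to -0.42). Myh10 had 36.7, 65.6 and 63.8 CPM in sham cdKO against 31.5, 24.6 and 35.6 CPM in sham control libraries (0.91, 0.18 to 1.63). Tagln rested on 1, 1 and 2 counts in sham cdKO and 1, 7 and 3 counts in sham control libraries. Acta2 did not differ beyond its spread in sham muscle (-0.09, -1.62 to 1.45), and this interval spans more than a log2 unit each way.

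The interaction compares the overload change in cdKO cells with that in control cells. It was -0.88 for Acta2 (95% interval -2.62 to 0.86), 1.01 for Tagln (-0.83 to 2.85), -0.97 for Actn1 (-1.82 to -0.13), -0.78 for Cald1 (-1.57 to -0.00123) and -0.98 for Tubb5 (-2.10 to 0.14). For Tpm4 it was 0.00, with a standard error of 0.39. The adjusted p ran from 0.925 to 0.999 over these 6 genes.

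**Figure D5:**
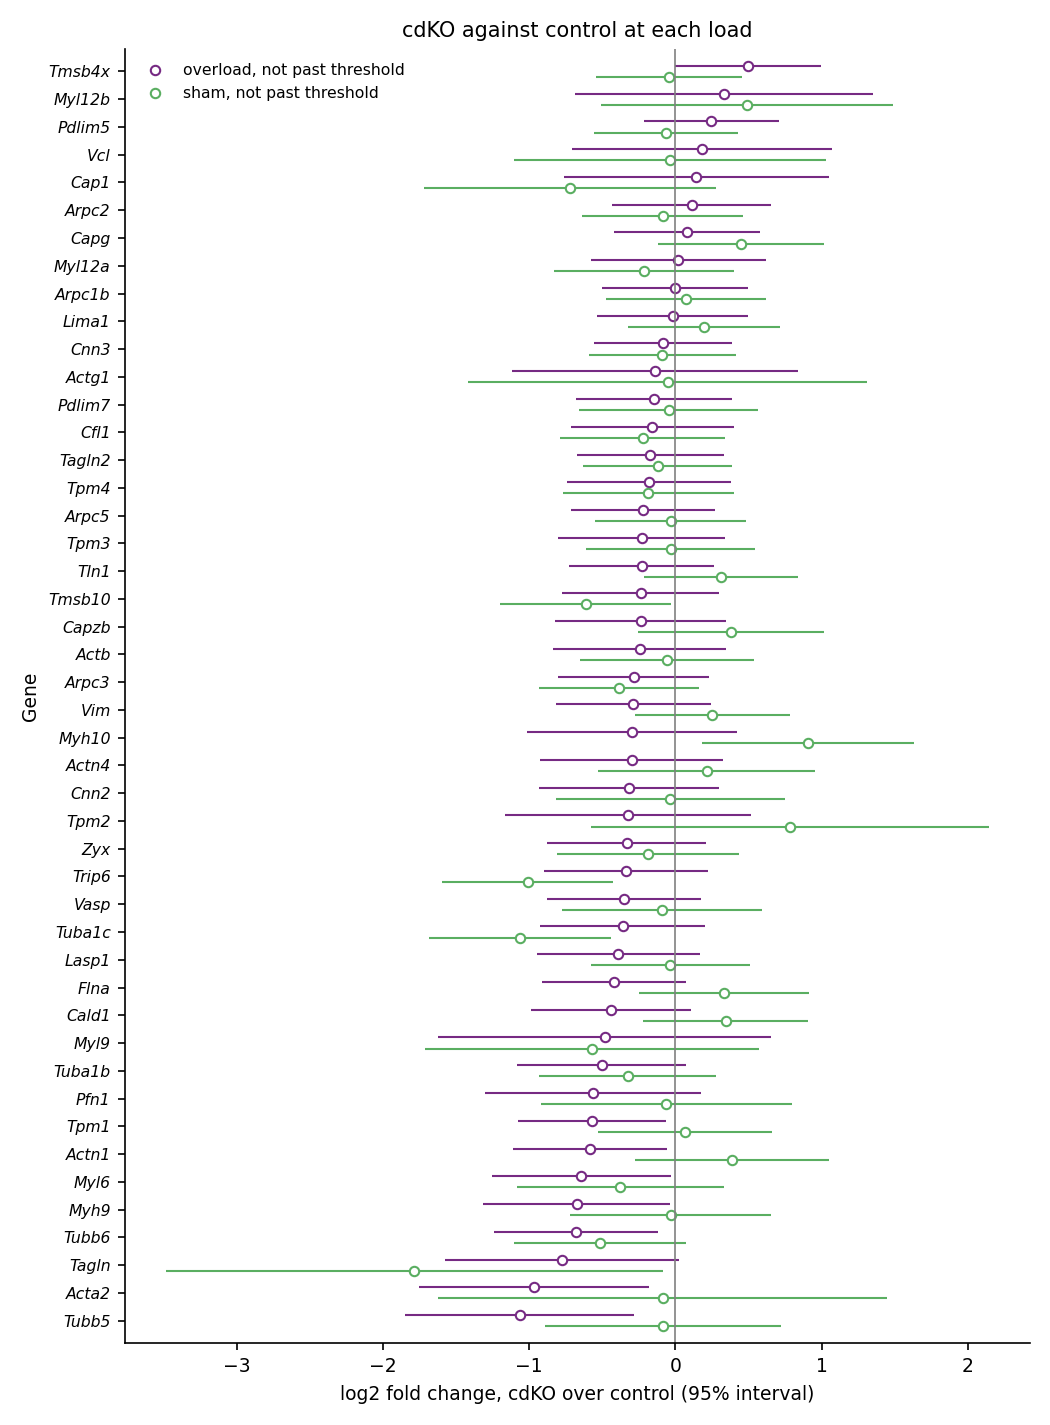
Log2 fold change of cdKO over control for 46 genes, in overloaded (purple, upper of each pair) and in sham muscle (green), with 95% intervals. All points are open because none passed the threshold, and 38 of the 46 overloaded estimates lie below 0.

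Other genes of the same machinery changed in both directions with overload. Their counts stand beside the 6.37% of all genes that were higher and 6.68% lower in cdKO cells, and 10.6% higher and 11.0% lower in control cells, and a count near these shares is not a result about a list. Of 48 further actin, myosin and actin-binding genes tested, 7 were higher and 5 lower in cdKO cells, and 13 were higher and 4 lower in control cells. Gelsolin, Gsn, which severs and caps filaments, was lower in both, with 8416, 15860 and 8851 CPM in overloaded cdKO against 36425, 30623 and 45325 CPM in sham cdKO libraries (-1.76 ± 0.32, adjusted p = 0.000645). In control cells Gsn had 8796, 6599 and 4542 CPM after overload against 31810, 41370 and 42434 CPM after sham surgery (-2.54 ± 0.32, adjusted p = 5.74e-06). Ablim1, a LIM protein that binds actin, was also lower in cdKO cells (-1.90 ± 0.39, adjusted p = 0.00270) and in control cells (-1.96 ± 0.40). Wdr1, a partner of cofilin, was higher in cdKO cells (0.87) and in control cells (1.38), as was moesin, Msn (0.86 and 1.23). Fhl1 was lower in control cells (-1.36, adjusted p = 0.000739).

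In the adhesion core 1 of 16 genes tested was higher and 2 lower in cdKO cells, with the integrin Itgav (0.94) higher and the tensins Tns2 (-1.70) and Tns1 (-1.01) lower. In control cells 3 were higher and 1 lower. Talin 2, Tln2 (1.58), tensin 3, Tns3 (1.54), and the fibronectin receptor subunit Itga5 (1.24) rose, and Tns1 fell (-0.94). DESeq2 called 4 genes of the adhesion core higher and 0 lower in control cells, so the control call of Tns1 was lost. In cdKO cells it called 1 higher and 1 lower.

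Of 6 SRF cofactors and related factors tested, 0 passed in either genotype by edgeR, by DESeq2 or by limma, and 2 in cdKO cells and 1 in control cells had an unadjusted p under 0.05 in edgeR. Of 10 further tubulins and microtubule factors, 2 were higher and 1 lower in cdKO cells, namely the tubulin cofactors Tbca (0.94) and Tbcb (1.17), and Map1lc3b (-0.82). In control cells 2 were higher and 2 lower, with Tbcb (1.27) and stathmin, Stmn1 (1.77), higher and Map1lc3b (-1.10) and Tubb4a (-2.62) lower. Of 4 further intermediate filament genes, desmin, Des, was lower in control cells by edgeR (-1.35, adjusted p = 0.0448), and none passed in cdKO cells by edgeR, where none had an unadjusted p under 0.05. DESeq2 called 1 intermediate filament gene higher and 0 lower in control cells, so the Des call was lost. In the comparisons of genotype and in the interaction, 0 genes of these 5 lists passed by edgeR, DESeq2 or limma.

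Several of the genes that rose are known in smooth muscle, so the markers of that type and of pericytes stand beside them. Of 13 markers 8 were tested, and 0 were higher in either genotype by edgeR, DESeq2 or limma, while 1 was lower in cdKO cells (Vtn) and 3 in control cells (Vtn, Steap4 and Synpo2). Their summed level was 416 to 450 CPM in overloaded cdKO libraries against 489 to 651 CPM in sham cdKO libraries, and 249 to 367 CPM in overloaded controls against 504 to 648 CPM in sham controls. Steap4 was the largest part of this sum, at 255 to 260 CPM in overloaded cdKO and 106 to 155 CPM in overloaded control libraries. Smtn, which did not pass, stood higher after overload in control cells, at 62.0, 59.1 and 57.2 CPM against 45.0, 28.7 and 35.6 CPM. In cdKO cells Smtn overlapped, at 35.5, 67.6 and 49.4 CPM against 25.7, 36.4 and 38.7 CPM. Of the 8 tested, 7 had negative fold changes in cdKO cells and 6 in control cells. The defining smooth muscle genes Myh11 and Lmod1 had 0 to 5 and 0 to 4 counts per library. The summed fibre markers were 35.9 to 75.7 CPM in overloaded cdKO, 58.3 to 155 in sham cdKO, 13.6 to 94.8 in overloaded control and 79.3 to 137 CPM in sham control libraries. Macrophage markers summed to 10.1 to 62.4 CPM over all libraries. Endothelial markers summed to 38.2 to 58.5 CPM in overloaded cdKO libraries against 69.7 to 160 CPM after sham surgery. In control cells they summed to 20.8 to 89.6 CPM after overload against 108 to 164 CPM after sham surgery. The 4 endothelial markers tested had negative fold changes in both genotypes. By edgeR 1 passed as lower in each genotype, beside 6.68% of all genes in cdKO and 11.0% in control cells. The tendon markers summed to 3714 to 4036 CPM in overloaded cdKO libraries, against 209 to 480 CPM after sham surgery, and to 2362 to 5117 CPM in overloaded controls, against 107 to 381 CPM. Most of the tendon sum after overload was 1 gene, Thbs4. It stood at 3972, 3668 and 3861 CPM in overloaded cdKO libraries and at 2255, 5102 and 3380 CPM in overloaded controls. The 7 muscle stem cell and myoblast markers summed to 111 to 130 CPM in overloaded cdKO libraries against 69.6 to 73.9 CPM after sham surgery, and to 99.96 to 126 CPM in overloaded controls against 55.1 to 72.5 CPM. Of the 3 tested, Vcam1 was higher in both genotypes (1.24 in cdKO and 1.44 in control cells). In control cells Msc was higher (1.61), and Des was lower by edgeR but not by DESeq2. Pax7 had 0 to 6 counts and Myod1 0 to 1 count per library. Erythroid markers summed to 0, 0 and 1.12 CPM in overloaded cdKO libraries against 5.50, 116 and 130 CPM after sham surgery, and to 281, 12.3 and 49.0 CPM in overloaded controls against 4.504, 2.73 and 0 CPM. Of the 3 tendon markers tested, Thbs4 alone passed (3.59 in cdKO and 4.45 in control cells). Negative fold changes were found for 1 of the 3 in cdKO cells and 2 in control cells. The part of these other transcripts in the results above was not tested.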

How the data were processed

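The authors' deposited table gave raw counts per gene, 1 column per library. Per the labels' protocols, the libraries were CEL-Seq2-type and read transcript ends. Per the submitters' processing notes, Trim Galore 0.6.6, HISAT2 2.2.1, featureCounts 2.0.1, DESeq2 1.26.0 and GRCm38 were used. The sources used here do not say how strand or molecular identifiers were handled or which annotation release was used, so intervals on shares cover counting error only. Reads at transcript ends measure little of isoform use, and genes with similar ends can share counts.

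CPM used TMM effective library sizes. A single edgeR 4.0.16 quasi-likelihood model of the 4 groups (R 4.3.3, filterByExpr, robust) gave each contrast, with Benjamini-Hochberg adjustment over 8161 genes. On simulated data it found 26% of 2-fold and 83% of 4-fold changes with overload in control cells, and 29% and 83% in cdKO cells. Between genotypes it found 34% and 80% in overloaded muscle and 18% and 74% in sham muscle. For the interaction the shares were 11% and 50%, so most simulated 2-fold changes were missed. Each simulation changed 200 of 8161 genes. In the data 3 genes passed between genotypes in overloaded muscle, 1 in sham muscle and 0 for the interaction. With overload in control cells 867 were higher and 901 lower. Adjustment is stricter where fewer genes pass. The shares between genotypes and for the interaction may therefore be too high for these data, and those with overload too low. DESeq2 1.42.0, limma 3.58.1 (voom with quality weights), the summed Y-linked share of counts as a covariate and the settings listed in the closing section were alternatives. Motif and share counts used Python 3.11.15 and scipy 1.17.1. Coordinates came from GENCODE vM21, which matched 54100 of 54100 identifiers.

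The genes and lists were chosen with earlier results of these data known. Genes of the list past the threshold, except Tagln2, Capg and Capzb, and an abundant gene of each class, are given in every library. From other lists, up to 4 genes with the smallest p in control cells and up to 2 in each other comparison are named. From the dividing-cell, endothelial and erythroid markers no gene is named. Some markers, such as Pdgfra, Dcn, Col3a1, Smtn and Scx, were named without use of this rule. Further genes of the list were named after their values were seen, where libraries did not overlap or a call turned on 1 library. The result of 1 further gene list is not reported here. Replicate numbers were not used to pair libraries in the main model. Correlations of same-numbered libraries ran from -0.228 to 0.268, and those of other pairs from -0.314 to 0.334. Between same-numbered sham and overloaded libraries they ran from -0.105 to 0.199 in cdKO and from 0.036 to 0.267 in control cells. With so few pairs, these values cannot exclude a pairing of sham and overloaded libraries.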

Additional observations from a re-analysis of the deposited data

How the results depend on the processing

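Of 18 genes called in control cells, the count stayed within 1.5 times under the other scalings, tools, filters and gene sets, and was 11 without both control overload 2 and control sham 3. It was 13 with the Y-linked share of counts as a covariate. Leaving out 1 library gave 14 to 26. Of 12 called in cdKO cells, 7 were called with no filter on low counts and 7 with counts thinned at random to the smallest library, and leaving out 1 library gave 6 to 16. For cdKO over control in overloaded muscle the count was 0 to 1 when 1 library was left out. The cause of these changes was not tested. With the replicate number as a block (replicate block), 18 genes passed in control cells and 10 in cdKO cells. Whether the numbers pair the libraries is not known. Scaled to protein-coding nuclear counts, the summed CPM averaged 22732 in overloaded cdKO libraries and 15500.3 in sham controls. Over the single genes followed, 979 recomputed values kept their direction and side of the threshold, 81 dropped out, 41 newly passed and 2 reversed. Both reversals came under thinning, for genes that had not passed: the log2 fold change for overload over sham was -0.17 for Arpc1b in control cells and -0.15 for Tpm1 in cdKO cells. Thinning is 1 random draw, and which genes pass differs between draws. Depth limits the genes with few counts: Tagln, Acta2 and Actg1 in sham libraries, and Myl9, Vcl, Cnn1 and Csrp1 throughout.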
